A study of Mus musculus with 2 samples.

Results

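Non-cycling B cells of the mature gate were the subject here: CD45+ brain cells that carried transcripts of the B cell receptor signalling chains and of *Ms4a1* or *H2-Aa*, but none of a set of early B cell genes. They numbered 310 of 2478 cells, 236 of 1271 in the WT library and 74 of 1207 in the twi library. Membership was decided by UMI counts alone. A cell had at most 15% of its UMIs from mitochondrial genes, at least 2 UMIs of *Cd79a* and *Cd79b* together, 0 of *Cd3d*, *Cd3e* and *Cd3g*, 0 of *Rag1*, *Rag2*, *Sox4*, *Vpreb1*, *Igll1* and *Dntt*, at least 1 of *Ms4a1*, *H2-Aa* and *Ighd*, under 2 of *Mki67*, *Top2a* and *Birc5*, and under 1% of its UMIs from *S100a8* and *S100a9*. *Ighd* had no row in the gene table used here, so that term added 0. Cells that passed for the B lineage, had under 2 UMIs of *Mki67*, *Top2a* and *Birc5* and carried at least 1 UMI of the 6 early genes make up the immature gate. It held 264 WT and 56 twi cells.

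The libraries came from CD45+ cells sorted from hemi-brains of untreated C57Bl/6 mice (C57BL/6J in the study's methods) at postnatal day 21, and the meninges had been taken off first. The twi (twitcher) mice were galc-/- and so lacked galactosylceramidase, the lysosomal enzyme that breaks down galactosylceramide and psychosine, and the WT mice were galc+/+ littermates. The cells of 2 to 3 animals went into a single library per genotype, read with the 3' v2 chemistry of 10x Genomics. There was thus no replicate error, no p-value is given, and every interval, given as 95% bounds in parentheses after its value, covers counting error only. UMIs of 1 cell are not independent: the variance over WT cells was 3.16 times the mean for *Vpreb3* and 14.3 times for *Hspa1a*, where counting alone gives 1, so these intervals are narrower than the spread over cells. Genotype, animals and library cannot be told apart.

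B cells are made in the bone marrow, where precursors rearrange the immunoglobulin genes with the RAG recombinase and a surrogate light chain before they display a receptor with the signal chains Cd79a and Cd79b. A B cell that leaves the marrow passes through a transitional stage and then joins the follicular or marginal zone pool. It raises CD20 (*Ms4a1*), complement receptor CD21 (*Cr2*) and MHC class II, with which it shows antigen to CD4+ T cells. The IgE receptor CD23 (*Fcer2a*) marks the follicular pool. In mice, B cells of several stages are known from the meninges and dura, which are supplied from the marrow of the skull, while brain tissue itself normally holds few.

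The markers that name mature B cells were present. *Cd74*, the invariant chain that escorts class II molecules, was seen in 97.9% of WT and 100% of twi cells, and *Ms4a1* in 96.6% of WT and 95.9% of twi cells. The class II chain gene *H2-Aa* was seen in 62.7% of WT and 78.4% of twi cells, and *Bank1*, a scaffold of B cell receptor signalling, in 55.5% of WT and 70.3% of twi cells. In the immature gate *Cd74* was seen in 67.0% of WT and 67.9% of twi cells, and *Bank1* in 18.6% and 41.1%. T gate cells, defined by at least 2 UMIs of the *Cd3d*, *Cd3e* and *Cd3g* genes and 0 of *Cd79a* and *Cd79b*, carried *Ms4a1* in 4.82% of WT and 1.79% of twi cells and *Bank1* in 0% and 0.897%, at median depths of 2952.5 and 3508 UMIs against 2004 and 2202 in the mature gate. The genes *Ms4a1*, *H2-Aa*, *Cd79a* and *Cd79b* helped to choose the cells, so their presence is no finding.

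Other transcripts went against a fully mature label. *Vpreb3*, which is retained from the pre-B to the transitional stage, was seen in 82.6% of WT and 74.3% of twi cells, and *Cd24a*, high on immature and transitional B cells, in 84.7% of WT and 67.6% of twi cells. The follicular marker *Fcer2a* was seen in 18.6% (13.9 to 24.2%) of WT and 32.4% (22.0 to 44.3%) of twi cells, and *Cr2* in 3.39% and 9.46%. In the immature gate *Vpreb3* was seen in 92.8% of WT and 87.5% of twi cells, *Cd24a* in 84.1% and 91.1%, and *Fcer2a* in 3.41% and 5.36%. The share of cells with *Cd24a* thus hardly differed between the gates in WT. T gate cells carried *Vpreb3* in 4.39% and 1.05%, and *Fcer2a* in 0% and 0.299%, so the shares in the B cells stood above those in a cell type that should lack these genes. The cells are therefore named mature-gate B cells, by their rule, and not mature B cells.

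Among themselves the mature-gate cells varied widely. *Ms4a1* ran from 0 to 34 UMIs per cell with a median of 6 in WT, and from 0 to 22 with a median of 7.5 in twi. *H2-Ab1*, a class II beta chain that the rule did not use, ran from 0 to 25 with a median of 3.5 in WT, and from 0 to 33 with a median of 5.5 in twi. *Vpreb3* had a median of 3 UMIs in WT and 2 in twi, against 6 in the immature gate of each library. The distributions overlapped between gates and between libraries for each of these genes. Near the limits of the rule, 7 WT cells and 1 twi cell had exactly 1 UMI of *Ms4a1* and *H2-Aa*, while 16 WT and 8 twi cells missed the gate with 0. A single UMI of the early genes kept 51 WT and 19 twi cells out.

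**Figure D1:**
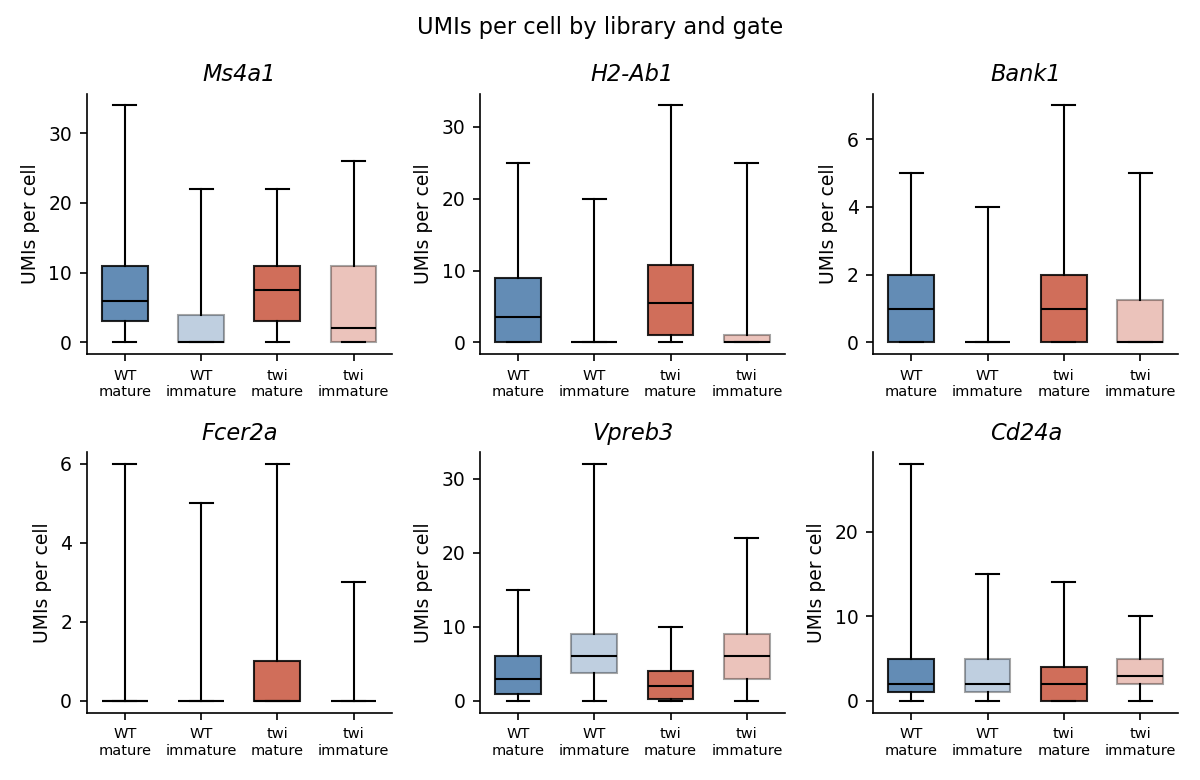
UMIs per cell of 6 genes (y axis) in the mature and immature gates of the WT library (blue) and the twi library (red), with the box from the lower to the upper quartile, the line at the median and the whiskers from the lowest to the highest cell. *Ms4a1* and *H2-Ab1* sat higher in the mature gate, where their medians were 6 and 3.5 UMIs in WT and 7.5 and 5.5 in twi, *Vpreb3* sat higher in the immature gate, and the whiskers overlapped in each panel.

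Which genes set the mature gate apart from the immature gate was described within each library, on UMIs summed over the cells of a gate and expressed as counts per 1000000 UMIs of that gate (CPM). Since both gates were cut from expression, these ratios describe the cells and are no test of them. Leaving out the genes of the rule, 4082 genes had at least 10 UMIs over both gates in each library. Of these 60 (1.47%) were at least 2-fold higher in the mature gate in both libraries, and 99 (2.43%) at least 2-fold lower.

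Antigen presentation genes were among the higher ones, and nothing is read from their count beside 1.47% because the rule used this contrast. Of the 14 genes on the MHC class II list with enough UMIs, 8 were at least 2-fold higher in both libraries and 0 lower, with a median log2 ratio of 1.56 in WT and 1.34 in twi, beside -0.08 and -0.11 over all 4082 genes. *H2-Ab1* (chr17:34257689-34269419 in GRCm38) stood at 2822 CPM in the mature gate against 613 CPM in the immature gate in WT, and 3195 against 1006 CPM in twi. *H2-Eb1* was higher 4.55-fold in WT and 3.69-fold in twi, and *Cd74*, the most abundant of them, 3.48-fold in WT and 2.55-fold in twi. *H2-DMa* and *H2-DMb2*, which form the editor that loads peptide onto class II, were higher too, the first 3.23-fold in WT and 3.76-fold in twi and the second 3.36-fold in WT and 3.11-fold in twi. *H2-Ob*, part of the DO molecule that restrains this editor, was higher by less, 1.5-fold in WT and 1.90-fold in twi. The other members past 2-fold were *H2-Oa*, *Ciita*, the master regulator of class II transcription, and the protease gene *Ctss*. The rule admitted cells through *H2-Aa*, so the position of this list is partly built in.

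The class II genes share a promoter with an X box and a Y box, of which the latter holds the letters ATTGG. Their upstream bases are shown because this list had the most genes past 2-fold between the gates. RefSeq promoters were found for 7 of 8 class II genes looked for (*H2-Aa*, *H2-Eb1*, *H2-DMa*, *H2-DMb1*, *H2-DMb2*, *H2-Oa* and *H2-Ob*, not *H2-Ab1*). The 120 bases before each transcription start were searched for ATTGG and GCAAC on both strands (CCAAT and GTTGC on the other), and these letters are in capitals below (GRCm38.p6, each read 5' to 3' on its gene's strand).
H2-Aa (chr17:34287824-34287943, minus strand): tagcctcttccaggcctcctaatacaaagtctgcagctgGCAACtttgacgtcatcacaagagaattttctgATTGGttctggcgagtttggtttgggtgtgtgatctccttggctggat
H2-Eb1 (chr17:34305747-34305866, plus strand): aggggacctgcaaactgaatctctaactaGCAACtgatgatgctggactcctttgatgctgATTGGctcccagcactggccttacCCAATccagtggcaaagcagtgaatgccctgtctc
H2-DMb2 (chr17:34145129-34145248, plus strand): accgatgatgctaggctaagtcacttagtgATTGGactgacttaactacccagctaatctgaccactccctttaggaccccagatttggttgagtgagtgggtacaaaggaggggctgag
ATTGG began -48 bases from the start in *H2-Aa*, -59 in *H2-Eb1* and -90 in *H2-DMb2*, where the base before the start is counted as -1. It was found on the gene's strand in 6 of the 7 windows. GCAAC began at -81 in *H2-Aa* and -91 in *H2-Eb1*, and the 2 words stood together in 4 of the 7. On either strand, ATTGG was in 21.3% of all 32851 RefSeq windows of this length, GCAAC in 16.1% and both in 3.56%. A match is a run of letters and not a bound site.

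Beyond class II, *Fcer2a* (chr8:3681737-3694175) had the largest ratio of the 12, ranked by the smaller of its 2 libraries. It was higher 5.41-fold in WT and 6.35-fold in twi, with 86 and 52 UMIs in the mature gate against 18 and 6 in the immature gate. *Ltb*, the membrane lymphotoxin subunit that organises lymphoid tissue, was higher 2.48-fold in WT and 3.05-fold in twi. Also higher in both libraries were *Capg*, an actin capping protein (2.84-fold in WT and 2.51-fold in twi), the desaturase gene *Scd1* (2.91-fold in WT and 2.66-fold in twi), *Anxa6*, a calcium-dependent membrane binder (2.66-fold in WT and 3.45-fold in twi), *Fgd2*, an exchange factor for Cdc42 (2.59-fold in WT and 3.05-fold in twi), and *Shisa5*, which is linked to apoptosis (2.77-fold in WT and 2.53-fold in twi). *Bank1*, one of the naming markers, was higher 3.31-fold in WT but 1.40-fold in twi.

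The lower genes included some of B cell precursors. The early B development list had 10 genes with enough UMIs that the rule did not use. Among them, 5 were at least 2-fold lower in both libraries (*Il7r*, *Tifa*, *Cecr2*, *Myb* and *Akap12*) and 0 higher. Over all 4082 genes, 2.43% were lower in this way. The gates were cut on other genes of this list, so its position is partly built in. Nothing is therefore read from its count beside 2.43%. *Il7r*, the IL-7 receptor chain that pro-B and pre-B cells need, was at 12.8 against 202 CPM in WT and 18.0 against 213 CPM in twi. *Myb*, a transcription factor of progenitors, had 15 UMIs against 103 in WT and 0 against 32 in twi. *Tifa*, an adaptor of NF-κB signalling, stood 0.125 times its immature level in WT and 0.116 times in twi. Lower in both libraries were also *Xrcc6*, the Ku70 subunit of DNA end joining, *Smarca4* and *Bcl7a* of the chromatin remodeller BAF, the sodium pump subunit *Atp1b1*, the chaperone *Dnajc7*, *Fam53b*, *Mgst1*, *Arl5c* and *Sepp1*. Their ratios ran from 0.100 (*Xrcc6*) to 0.292 (*Sepp1*) in WT. *Ebf1*, a factor that sets B cell identity, was 0.546 times its immature level in WT and 0.526 times in twi, and at 2487 and 2314 CPM it was second to *Klf2* (3098 and 3548 CPM) on the list of B cell transcription factors.

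**Figure D2:**
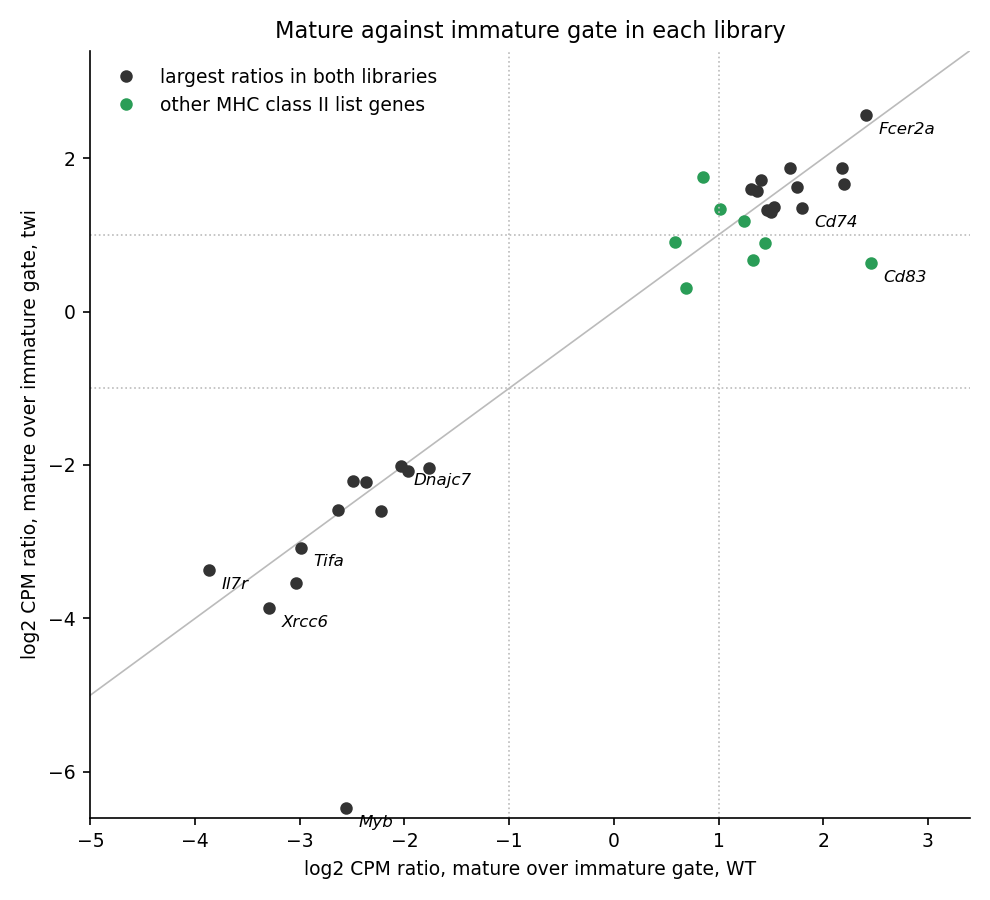
log2 CPM ratio of mature over immature gate in the WT library (x axis) against the twi library (y axis), for the 12 largest ratios each way (black) and the other MHC class II list genes (green); dotted lines mark 2-fold and the solid line equal ratios. *Fcer2a* was higher 5.41-fold in WT and 6.35-fold in twi, *Il7r* lay far below 0 in both libraries, and *Myb*, with 0 UMIs in the twi mature gate, is placed by the pseudocount.

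Cells of the mature gate were next compared by whether CD23 transcripts were seen. Those with an *Fcer2a* UMI, 44 in WT and 24 in twi, were set beside the rest of the gate in each library. *H2-Ab1* was higher in them, at 4792 against 2381 CPM in WT and 4521 against 2517 CPM in twi. *Cd83*, an activation antigen, had a ratio of 2.78 (1.58 to 4.80) in WT and 1.96 (0.865 to 4.43) in twi. Other activation and homing genes went opposite ways in the libraries, with *Cd69* at 1.58 (1.04 to 2.36) in WT and 0.384 (0.174 to 0.765) in twi, and *Ccr7* at 1.69 (1.19 to 2.36) and 0.734 (0.402 to 1.29). *Vpreb3* was lower, at 631 against 2217 CPM in WT and 567 against 1403 CPM in twi, as was *Cd24a*, at 1005 against 1853 CPM and 603 against 1566 CPM. *Ms4a1*, a gene of the rule, was also lower in the *Fcer2a* cells, at 2092 against 4305 CPM in WT and 1525 against 4428 CPM in twi. *Bank1* did not follow the split, with ratios of 1.14 (0.802 to 1.60) and 0.896 (0.546 to 1.44). Depth was close between the sides, with medians of 2090.5 against 1995.5 UMIs in WT and 2206 against 2145.5 in twi. Because it was chosen with these values in view and rests on the same cells, the split is a description.

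**Figure D3:**
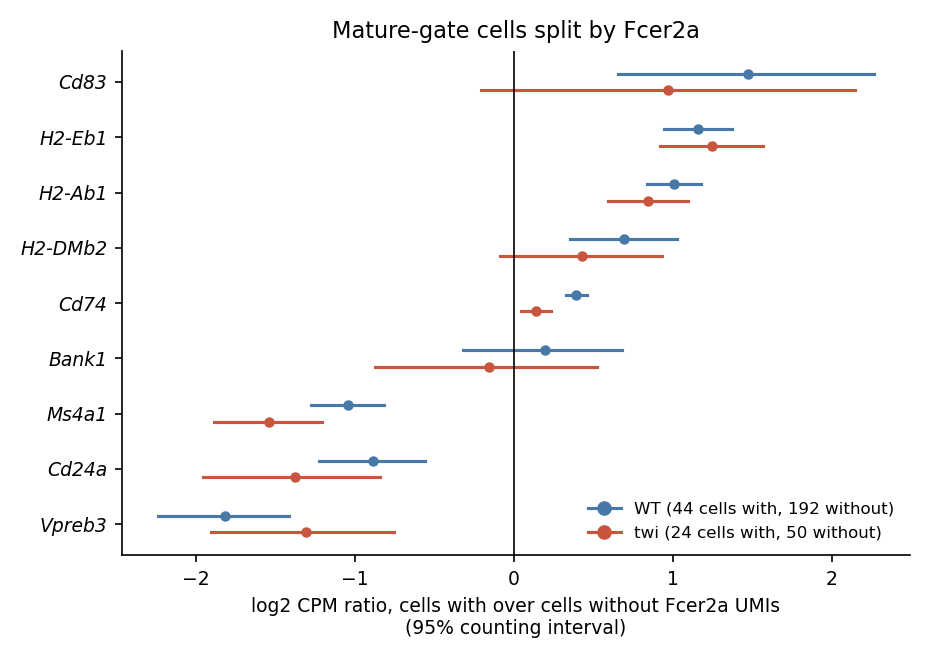
log2 CPM ratio of mature-gate cells with *Fcer2a* UMIs over those without (x axis), for 9 genes in WT (blue) and twi (red); points are ratios and lines 95% counting intervals. *H2-Eb1* and *H2-Ab1* lie above 0 and *Ms4a1*, *Cd24a* and *Vpreb3* below 0 in both libraries.

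Some cells of the gate held little class II. The 88 WT cells and 16 twi cells without an *H2-Aa* UMI, admitted through *Ms4a1*, had 162 and 523 CPM of *H2-Ab1*, against 4213 and 3889 in the others. Their *Vpreb3* was higher, at 2981 against 1376 CPM in WT and 2178 against 846 in twi. Cells without *H2-Aa* were 37.3% of the gate in WT and 21.6% in twi. *H2-Aa* is a gene of the rule and varies with the other class II genes, so this split was made on a value already used and is a description.

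Signs of plasma cells, germinal centre cells and innate-like B cells were few, which the rule largely fixed for the first and second, since plasma cells lose *Ms4a1* and class II and germinal centre cells divide. *Jchain*, which links secreted IgM and IgA, was at 0 in both libraries. At 3 counts, the limit a count of 0 allows, that leaves room for 1.27% of WT and 4.05% of twi cells with a UMI. *Sdc1* was seen in 3 WT and 0 twi cells. *Cd5*, carried by B-1a cells, was seen in 0 WT and 2 twi cells, and *Tbx21* in 1 cell of each. No germinal centre gene reached 10 UMIs over both libraries, and the list summed to 14 UMIs in WT and 2 in twi. The age-associated B cell list had 1 gene with enough UMIs (*Zeb2*, 110 UMIs in WT and 29 in twi). The heavy and light chain genes had no rows in the table, so isotype and light chain were not analysed here.

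Mature-gate B cells formed a smaller share of the CD45+ cells in twi than in WT. They were 18.6% of WT cells (16.5 to 20.8%) and 6.13% of twi cells (4.84 to 7.64%), a ratio of 0.330 (0.251 to 0.430). The immature gate had a ratio of 0.223 (0.164 to 0.299) and the cycling B cells of 0.351 (0.160 to 0.712). Within the non-cycling B lineage the mature gate held 45.7% in WT (41.4 to 50.1%) and 53.6% in twi (44.9 to 62.1%), and these intervals overlapped. A share falls when another class grows, and the T gate took 17.9% in WT and 55.4% in twi. The ratio was 0.608 once the T gate was taken out of the denominator, a choice made with the data already in view. Numbers of cells per brain were not measured here, so a loss of B cells and a gain of other cells cannot be told apart.

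**Figure D4:**
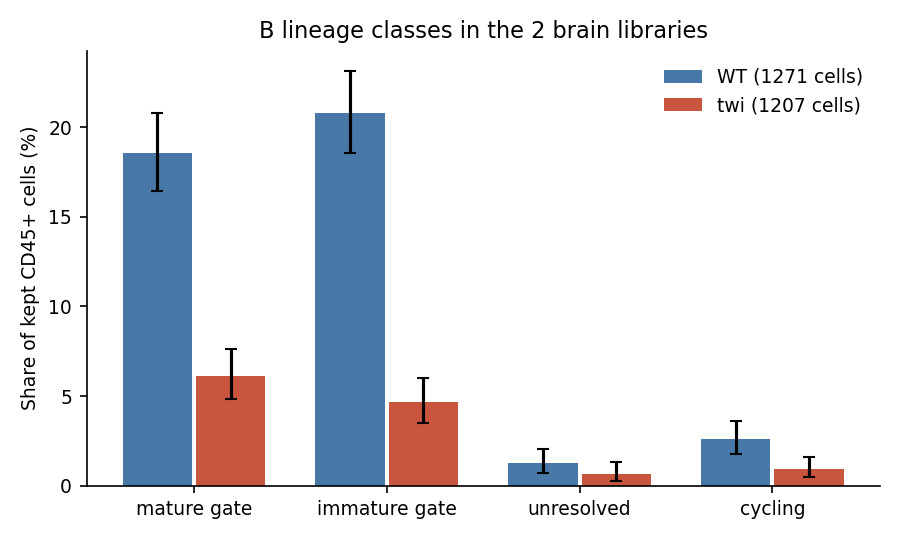
Share of all kept CD45+ cells (y axis, percent) that fell in each B lineage class, in the WT library (blue) and the twi library (red); bars start at 0 and error bars are exact 95% binomial intervals. The mature gate held 18.6% in WT and 6.13% in twi, and the immature gate 20.8% and 4.64%.

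Before expression is compared, the libraries differed in ways that the genotype does not define. *Xist*, expressed from the inactive X of female cells, had 0 UMIs in the WT mature gate and 59 in twi, in 23 of 74 cells, which was at least 55.2-fold higher in twi against a limit of 3 UMIs over the WT cells. At least 1 UMI of the Y-linked *Ddx3y*, *Eif2s3y*, *Kdm5d* or *Uty* was in 84 of 236 WT and 15 of 74 twi cells, so the twi pool held animals of both sexes and no female cell was detected among these WT cells. Comparisons restricted to cells with a Y transcript and no *Xist* are given beside many of the main ones, and they rest on 84 WT and 13 twi cells. Twi cells with *Xist* and no Y transcript numbered 21 of 74. Cells with neither kind of transcript, or with both, are in neither subset. RNA of other cells differed too: *S100a8*, a neutrophil transcript of the rule, was in 69.5% of WT and 39.2% of twi mature-gate cells, and in 80.3% and 45.9% of T gate cells. The 12 neutrophil genes summed to 1854 CPM in WT and 641 CPM in twi, with 5 of 8 genes past 1.5-fold lower, *S100a8* the most abundant and *Cxcr2* at 0. The microglial list, with 8 of 9 genes past 1.5-fold lower in twi, summed to 797 and 294 CPM, but 188 of its 373 WT UMIs were in 1 cell and without that cell it was at 397 CPM. Another WT cell held 77 of 109 *Ccl5* and 30 of 44 *Gzma* UMIs, transcripts of cytotoxic lymphocytes. *Galc* had 2 UMIs in WT and 1 in twi, too few to check the label, and a 3' count does not read the mutation.

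Expression was compared between twi and WT on 468114 and 166846 UMIs summed over the WT and twi mature-gate cells. Of 6177 genes with at least 10 UMIs, 890 (14.4%) were at least 1.5-fold higher in twi and 1042 (16.9%) at least 1.5-fold lower, on the log2 scale with a pseudocount of 0.5 UMIs, around a median log2 ratio of -0.0020. These shares fell with depth: among 1932 genes with at least 50 UMIs, 4.66% were higher and 8.54% lower. A share of genes past 1.5-fold in a list is therefore read beside 14.4% and 16.9%.

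Several transcripts of early B cells were lower in twi mature-gate cells, among them *Vpreb3* and *Cd24a*, whose ratios were near 1 in the immature gate. Whether the gates differ in this was not tested. *Vpreb3* (chr10:75943057-75949657) was at 1927 CPM in WT and 1121 CPM in twi, with 902 and 187 UMIs, a ratio of 0.582 (0.494 to 0.682). In the immature gate its ratio was 0.931 (0.830 to 1.04). *Cd24a* (chr10:43578284-43584265) was at 1698 CPM in WT and 1241 CPM in twi, a ratio of 0.731 (0.624 to 0.852), beside 1.06 (0.904 to 1.23) in the immature gate. *Ebf1*, the most abundant gene of the early list, was at 0.930 (0.827 to 1.04). *Cd93*, an antigen that marks immature and transitional B cells and was picked out after its values were seen, had 32 UMIs in 24 WT cells and 1 UMI in 1 twi cell. On the early B development list 4 of 9 genes with enough UMIs were past 1.5-fold lower (*Vpreb3*, *Cd93*, *Myb* and *Cecr2*) and 0 higher, with a median log2 ratio of -0.46, and the transitional list, which shares most of its genes with it, had 3 lower and 1 higher (*Ptpn22*, 8 and 6 UMIs) of 8 (median -0.28). Most genes that make up a count of 5 or fewer past a fold are named here and below. Where the naming rule did not choose them, they were named after their values were seen. The rule had set the 6 early genes to 0 in both libraries. Among Y transcript cells the *Vpreb3* ratio was 0.696 (0.481 to 0.981) and the *Cd24a* ratio 0.979 (0.708 to 1.33), and the medians of the early and transitional lists were both -0.06. The twi cells with *Xist* and no Y transcript, over all WT cells, had *Vpreb3* at 0.701 (0.531 to 0.911) and *Cd24a* at 0.848 (0.647 to 1.10).

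*Fcer2a* was higher in twi. It stood at 184 CPM in WT and 312 CPM in twi, with 86 and 52 UMIs and a ratio of 1.70 (1.18 to 2.42), and was seen in 18.6% of WT and 32.4% of twi cells. When each cell was thinned to 1000 UMIs and 26 WT cells below that depth were left out, the shares were 13.3% and 27.0%. The follicular list as a whole had 3 of 11 genes past 1.5-fold higher, namely *Fcer2a*, *Cr2* with 9 and 8 UMIs and *Gpr183*, a receptor for oxysterols, with 24 and 13 UMIs. *S1pr1*, the receptor for exit from lymphoid tissue, was past it in the other direction, with 98 and 22 UMIs and a ratio of 0.630 (0.378 to 1.01). The list median was 0.26, but -0.24 among Y transcript cells. *Klf2*, a regulator of lymphocyte traffic, had a ratio of 1.15 (1.04 to 1.26). Among Y transcript cells *Fcer2a* had 30 and 5 UMIs and a ratio of 0.969 (0.293 to 2.52), an interval that holds both 1 and the ratio of all cells, and in the twi cells with *Xist* and no Y transcript, over all WT cells, it was at 1.72 (0.900 to 3.04) on 14 twi UMIs. Among Y transcript cells the *Klf2* ratio was 0.843 (0.667 to 1.05).

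The class II genes *Cd74*, *H2-Ab1* and *H2-Aa* had ratios above 1 but under 1.5 over the whole gate. This was not so for all of them in the subsets of cells typed by sex transcripts. Those subsets held 13 twi cells with a Y transcript and no *Xist* and 21 with *Xist* and no Y transcript, of 74. No ratio was taken for the other twi cells, so the subsets do not show whether the difference over the whole gate depends on sex. *Cd74* was at 22685 CPM in WT and 24585.5 CPM in twi, a ratio of 1.08 (1.05 to 1.12), *H2-Ab1* had a ratio of 1.13 (1.02 to 1.25) and *H2-Eb1* of 1.11 (0.978 to 1.27). *H2-Aa*, of the rule, was at 2425 CPM in WT and 3111 CPM in twi, a ratio of 1.28 (1.15 to 1.42). Of the 15 list genes with enough UMIs 1 was past 1.5-fold higher (*Cd86*, a costimulator, with 21 and 11 UMIs) and 0 lower (median 0.18). *Ifi30*, a thiol reductase of antigen processing, was below 1, at 0.857 (0.703 to 1.04). When only cells with an *H2-Aa* UMI were kept (148 WT and 58 twi cells, chosen after seeing the data), the log2 ratios were -0.10 for *Cd74*, -0.11 for *H2-Ab1* and -0.09 for *H2-Eb1*, while *H2-Aa* and the list median were both at 0.09. That choice itself drops cells of low class II, more of them in WT, so it lowers these ratios by construction. Among Y transcript cells *H2-Ab1* was at 0.972 (0.767 to 1.22) and *Cd74* at 1.09 (1.01 to 1.18). In the 21 twi cells with *Xist* and no Y transcript, over all WT cells, *Cd74* was at 0.888 (0.829 to 0.951), *H2-Ab1* at 0.973 (0.802 to 1.17), *H2-Eb1* at 0.871 (0.670 to 1.12) and *H2-Aa* at 1.00 (0.815 to 1.22). In the immature gate *Cd74* was higher in twi by 1.48 (1.39 to 1.58) and *H2-Ab1* by 1.64 (1.32 to 2.03). The MHC class I list had 0 of 11 genes past 1.5-fold either way (median -0.01).

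Receptor signalling and the regulators of B cell identity had ratios close to 1 in most cases. *Cd79a* had a ratio of 0.955 (0.885 to 1.03) and *Cd79b* of 0.847 (0.771 to 0.930), both genes of the rule, and *Ms4a1* (chr19:11249675-11266241), also of the rule, stood at 3901 CPM in WT and 3446 CPM in twi, a ratio of 0.883 (0.803 to 0.971). The *Ms4a1* ratio among Y transcript cells was 1.13 (0.927 to 1.38), in the other direction. *Bank1* (chr3:136053363-136326066), a naming marker that the rule did not use, was at 461 CPM in WT and 515 CPM in twi with 216 and 86 UMIs, a ratio of 1.12 (0.860 to 1.44), at 1.47 (0.897 to 2.32) among Y transcript cells and in the immature gate at 2.64 (1.78 to 3.87). The inhibitory receptor *Cd22*, a sialic acid lectin, was seen in 40.3% of WT and 47.3% of twi cells. The summed UMIs of the receptor and signalling list had a ratio of 0.949 (0.906 to 0.993). The rule genes *Cd79a* and *Cd79b* held 2692 and 1927 of its 7244 WT UMIs, so nothing is read from that direction. Of 23 receptor and signalling genes 3 were past 1.5-fold higher and 2 lower (median 0.07). The higher ones were *Cr2*, the phospholipase *Plcg2* at 1.55 (1.01 to 2.35) and *Malt1*, and the lower ones the inhibitory Fc receptor *Fcgr2b* at 0.529 (0.240 to 1.05) and the kinase *Pik3cd* at 0.401 (0.102 to 1.15). The inhibitory lectin receptor *Cd72* was at 0.777 (0.610 to 0.980), and the phosphatase *Ptpn6* at 1.04 (0.876 to 1.24). Of 18 transcription factors 0 were past 1.5-fold higher and 4 lower (median -0.10). The 4 were the coactivator *Pou2af1* at 0.658 (0.450 to 0.942), *Bach2* at 0.630 (0.295 to 1.23), the E protein *Tcf3* at 0.527 (0.347 to 0.777) and the Ets factor *Spi1* (PU.1) at 0.598 (0.363 to 0.944). *Spib*, a relative of *Spi1*, was at 0.778 (0.642 to 0.939) and *Ebf1* at 0.930 (0.827 to 1.04). The survival receptors for BAFF, *Tnfrsf13c* and *Tnfrsf13b*, were at 0.806 (0.636 to 1.01) and 1.06 (0.808 to 1.39), and their list had 0 genes higher and 1 lower (*Traf3*, 18 and 3 UMIs) of 10 (median -0.09).

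Some heat shock and early response genes were higher in twi and others lower. Their counts past 1.5-fold are read beside 14.4% higher and 16.9% lower over all genes. *Hspa1a*, the inducible Hsp70, was at 1632 CPM in WT and 2949 CPM in twi, a ratio of 1.81 (1.61 to 2.03), and was seen in 35.2% of WT and 54.1% of twi cells, beside 53.5% and 64.7% of T gate cells, which can express it too. It was unevenly spread, from 0 to 49 UMIs per WT cell (median 0) and from 0 to 56 per twi cell (median 1). *Hspe1*, a mitochondrial chaperonin, was at 1.47 (1.16 to 1.86), and of 10 heat shock genes 2 were past 1.5-fold higher, *Hspa1a* and *Dnajb1*, and 1 lower, *Dnaja1* (median 0.23). *Junb*, an AP-1 factor, was at 1002 CPM in WT and 1720.2 CPM in twi, a ratio of 1.72 (1.48 to 1.99), and *Jun* at 1.26 (1.08 to 1.47), but *Fos*, their usual partner, was at 767 CPM in WT and 402 CPM in twi, a ratio of 0.524 (0.397 to 0.681). The early response list had 4 of 18 genes higher and 2 lower (median 0.12, but -0.78 among Y transcript cells). Beside *Junb* the higher ones were *Egr1*, *Nr4a1*, which follows receptor engagement, and *Myc*, with 20 to 23 UMIs each in WT and 18 to 24 in twi, and beside *Fos* the lower one was *Fosb*. *Tsc22d3* (GILZ), induced by glucocorticoids, was at 1171 CPM in WT and 1690.2 CPM in twi, a ratio of 1.44 (1.25 to 1.67), and of 7 genes on its list 2 were past 1.5-fold higher, *Sgk1* and *Cdkn1b*, and 0 lower (median 0.43). That median was 0.04 without the top 5% of cells by UMIs and 0.17 after thinning.

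Several of these differences were not seen among cells with a Y transcript. When both libraries were limited to them, *Hspa1a* was at 0.969 (0.723 to 1.28), *Junb* at 0.983 (0.663 to 1.42) and *Hspe1* at 0.849 (0.435 to 1.53), while *Jun* was lower in twi, at 0.466 (0.276 to 0.744). *Fos* was lower in twi there too, at 0.289 (0.123 to 0.583), and *Tsc22d3* was at 1.3 (0.926 to 1.80). In the 21 twi cells with *Xist* and no Y transcript, set against all 236 WT cells, *Hspa1a* was at 2.0 (1.66 to 2.39) and *Junb* at 1.80 (1.40 to 2.28). The *Xist* cells of twi thus had *Hspa1a* and *Junb* above the WT level. The 13 Y transcript cells of twi had both near the level of the WT Y transcript cells. Twi cells with neither kind of transcript, or with both, are in neither subset. Over all twi mature-gate cells the variance of *Hspa1a* was 18.9 times its mean. Its interval among Y transcript cells is therefore narrower than the spread over cells. Sex, animal and genotype cannot be told apart here.

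Interferon-stimulated genes showed no common direction. Of the 24 of 40 genes with enough UMIs, 7 were past 1.5-fold higher in twi and 5 lower, and the 40 summed to 2879.6 CPM in WT and 2895 CPM in twi, a ratio of 1.01 (0.904 to 1.12), with a list median of 0.30 on the log2 scale. The counts are read beside 14.4% higher and 16.9% lower over all genes, and 14 of the 24 lay above a log2 ratio of 0 and 10 below. The median was 0.66 after thinning and 0.07 among Y transcript cells. *Ifi27l2a*, the most abundant, was lower, at 953 CPM in WT and 617 CPM in twi, a ratio of 0.648 (0.518 to 0.804), and was 0.584 (0.349 to 0.927) among Y transcript cells. It held 446 of the list's 1348 UMIs in WT and 103 of 483 in twi, so it weighs on the summed ratio. *Samhd1*, which limits nucleotides for viruses, was at 1.37 (1.06 to 1.77) and *Bst2* at 0.701 (0.361 to 1.28). The 7 higher genes were low, *Ly6a* having the most UMIs, 28 in WT and 23 in twi, and the lower ones beside *Ifi27l2a* were *Irf9*, *Rtp4*, *Xaf1* and *Igtp*. *Ltb*, of the cytokine list, was at 1160.0 CPM in WT and 1420.5 CPM in twi, a ratio of 1.22 (1.05 to 1.43), and among Y transcript cells at 0.817 (0.560 to 1.16). The lysosomal sphingolipid genes, the pathway in which Galc works, had 2 of 12 past 1.5-fold higher, *Neu1* and *Npc1*, and 2 lower (median 0.04), and their summed UMIs a ratio of 0.969 (0.843 to 1.11). Their most abundant gene *Psap*, which encodes the saposins, was at 1.03 (0.819 to 1.29), and the ganglioside activator gene *Gm2a* at 1.01 (0.702 to 1.43). Of the energy genes, 14 oxidative phosphorylation genes had a median of -0.07 (1 past 1.5-fold lower, *Cox5a*) and a summed ratio of 0.911 (0.836 to 0.992). The 11 glycolysis genes had a median of 0.09 (1 lower, *Pfkl*) and a summed ratio of 0.999.

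The largest single-gene ratios among genes of at least 100 mean CPM were of mixed function. Lower in twi, apart from the neutrophil genes *S100a8*, *S100a9* and *Ngp*, were *Coq7* of ubiquinone synthesis, the disulphide isomerase *Pdia6*, the IκB kinase subunit *Ikbkb*, the calcium pump *Atp2a3*, the cofactor *Vgll4*, the complex I subunit *Ndufb10* and *Rab24*. *Coq7* had 92 and 8 UMIs, a ratio of 0.244 (0.102 to 0.501), and the other 6 ranged from 0.416 (*Pdia6*) to 0.449 (*Rab24*). *Coq7* was lower in the mature than in the immature gate, 0.431 times in WT and 0.109 times in twi, and its ratio in the immature gate was 0.968 (0.707 to 1.31). Higher in twi, apart from *Xist*, were *Cyfip2*, *Taf15*, the small GTPase gene *Rhob*, *Rsl1d1*, *Rp9*, *Pcnp*, *Rgs1*, which restrains chemokine signalling, the stress gene *Sesn1* and *Mycbp2*. *Cyfip2* was at 2.19 (1.25 to 3.82), *Rhob* at 2.09 (1.46 to 2.97) and *Rgs1* at 1.91 (1.18 to 3.06), and the lowest of them was *Mycbp2* at 1.85 (1.09 to 3.08). These were picked as the extremes of 6177 genes, and most rest on few UMIs. *Rhob* was at 0.908 (0.276 to 2.35) among Y transcript cells, where the log2 ratios of *Taf15* and *Rp9* were 1.87 and 1.66 against 1.07 and 1.00 over the whole gate. The log2 ratio of *Rgs1*, 0.94 over the whole gate, was 0.09 without cells carrying transcripts of another class and 0.09 among cells with *H2-Aa*.

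Of the migration genes 3 of 14 were higher in twi and 2 lower (median 0.07), the former *Gpr183* and the integrins *Itgal* and *Itgb7*, the latter *S1pr1* and *Cd44* (25 and 1 UMIs). Its most abundant gene *Ccr7*, the receptor that draws B cells to T zones, was at 1.03 (0.768 to 1.38) and *Cxcr4* at 0.802 (0.384 to 1.55). The marginal zone list had 2 of 8 higher (*Dtx1* and *Cd36*) and 0 lower (median 0.12), with *Cd1d1* at 0.964 (0.439 to 1.96), and the B1 list 0 and 2 of 6 (median -0.25), the lower ones being *Bhlhe41* (39 and 6 UMIs) and *Lgals1* (42 and 3 UMIs). The Toll-like receptor list had 0 of 6 either way, with *Unc93b1*, which carries these receptors to endosomes, at 1.02 (0.844 to 1.23), and the cytokine list 1 higher, *Ccl4* (6 and 7 UMIs), and 0 lower of 4. The plasma cell list had 3 of 6 lower (*Irf4*, *Derl3* and *Slpi*, 10 to 18 UMIs in WT and 0 or 1 in twi). The cell cycle list had 1 higher (*Pcna*) and 3 lower (*Stmn1*, *Hmgb2* and *Cenpa*) of 8, in cells chosen for low *Mki67*, *Top2a* and *Birc5*. Of the other cell types, the erythroid list summed to 1685 CPM in WT and 1001 in twi, led by *Hbb-bs*, the T cell list to 267 and 168, led by *Ccl5* and with *Cd4* and *Bcl11b* at 0, the NK list to 177 and 119.9, led by *Gzma*, and the monocyte list to 197 and 179.8, led by *Lyz2*. In WT, 1 cell held 78 of the 125 T cell list UMIs and 56 of the 83 NK list UMIs. Without that cell these lists were at 101 and 58.2 CPM in WT, below their twi values. Among dendritic cell genes only *Irf8*, which B cells also express, had enough UMIs, at 0.869 (0.675 to 1.11). When cells with any UMI of *C1qa*, *C1qb*, *C1qc*, *Cd8a*, *Cd8b1*, *Nkg7*, *Lcn2*, *Ngp*, *Camp* or *Ltf* were left out, 107 WT and 48 twi cells remained, and the log2 ratio of *Junb* went from 0.78 to 0.38, that of *Fos* from -0.92 to -1.53 while that of *Vpreb3* was -0.78 with and without them. The part of other RNAs in the ratios was not tested beyond this.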

How the data were processed

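Brain CD45+ cells of 1 WT and 1 twi pool were read with the 10x Genomics 3' v2 assay. The values the authors deposited are unnormalized UMI counts for each gene and barcode, made with Cell Ranger 2.1.1 on mm10 per the submitters' processing notes. The matrices held 1278 barcodes with 3749714 UMIs for WT and 1220 barcodes with 4807539 UMIs for twi, over 27998 genes, and shared 0 barcodes. No cell annotation was used. Barcodes of at most 15% mitochondrial UMIs were kept and gated on raw counts, and no doublet caller was run. Gene locations are from GENCODE M21 on GRCm38, and promoters from RefSeq on GRCm38.p6.

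Counts were summed per gate and library and scaled to CPM. With 1 library per genotype no count model was fitted. Ratios carry exact conditional 95% intervals and shares Clopper-Pearson intervals, and a count of 0 allows 3. List medians are of log2 ratios with 0.5 UMIs added, over genes with at least 10 UMIs. A gene was counted as higher or lower past 1.5-fold between libraries, or past 2-fold in both libraries between gates. Shares of cells were also taken after thinning to 1000 UMIs per cell. Named genes were the naming markers, the 5 most abundant per list, the 10 largest ratios each way between libraries (at least 100 mean CPM and 25 UMIs), the 12 largest each way between gates, checks of sex and *Galc*, and the genes of the rule. The members and the 32 gene lists were chosen with earlier results of these data known. Immunoglobulin chain genes had no rows in the table, so the planned heavy and light chain subsets were not made. The scripts used Python 3.11.15, numpy 2.4.6, scipy 1.17.1 and matplotlib 3.10.9, and were tested on simulated data. Sensitivity alternatives changed gates, filters, denominators, weights and the cells kept. Some genes of the lists are not reported here.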

Additional observations from a re-analysis of the deposited data

How the results depend on the processing

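The mature-gate share was lower in twi under each of 12 alternatives, with ratios from 0.284 to 0.608. The ratio was 0.472 without cells carrying transcripts of another class and 0.608 with T gate cells out of the denominator. The mature share of the non-cycling B lineage was 1.17 times the WT value and kept its direction in 10 of 11 alternatives, the exception being 0.944 among Y transcript cells. The 890 higher genes became 329 at a minimum of 25 UMIs, 2705 at 1 UMI and 90 at 50 UMIs. The 1042 lower genes became 427, 2378 and 165 at these minimums, 674 without cells of other-class transcripts and 651 among Y transcript cells. The 159 genes past 2-fold between gates became 69 at 25 UMIs, 931 at 1 UMI, 94 without cells of other-class transcripts, 88 after thinning and 62 among Y transcript cells. The minimums change how many low genes are counted and the cell filters leave fewer cells, and no other cause was tested.

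Of 480 values of single genes under the alternatives, 445 stayed within the interval of the whole gate, 23 moved out of it and 12 changed direction although that interval left out 1. Among Y transcript cells (84 WT, 13 twi) the log2 ratios were -0.033 for *H2-Ab1*, -0.0018 for *H2-Aa*, -0.036 for *Hspa1a*, -0.19 for *Hspe1*, -1.07 for *Jun*, -0.0069 for *Junb*, -0.27 for *Ltb*, -0.24 for *Klf2*, -0.024 for *Rhob* and 0.19 for *Ms4a1*. Among cells with *H2-Aa* they were -0.10 for *Cd74* and -0.11 for *H2-Ab1*. Keeping only cells with *H2-Aa* lowers these class II ratios by construction. The cause among Y transcript cells was not tested. The follicular and early response list medians were -0.24 and -0.78 among Y transcript cells, and those of the early B, transitional and interferon lists -0.06, -0.06 and 0.07. After thinning the early B and interferon medians were -0.86 and 0.66, and among cells with *H2-Aa* the early B median was -0.70. *Shisa5* was at 0.18 among Y transcript cells against 0.46. *H2-Eb1*, whose interval held 1, was at -0.03 there and -0.09 among cells with *H2-Aa*. The glucocorticoid median was 0.04 without the top 5% of UMIs and 0.17 after thinning. Without cells of other-class transcripts *Rgs1* was at 0.09, *Junb* at 0.38 and *Fos* at -1.53. *Vpreb3* stayed lower in all 16 alternatives (log2 -1.09 to -0.51) and *Fcer2a* higher in 15, without a clear direction among Y transcript cells (5 twi UMIs, ratio 0.969). The *H2-Aa* gate, the 50 UMI minimum and the denominator without T gate cells were chosen after seeing the data. Leaving immunoglobulin genes out of the total changed nothing, since *Jchain* alone was listed, at 0.

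No paired analysis was possible because each genotype has 1 library, and for the same reason none was left out in turn. The intervals take no account of animals, library preparation or the spread between cells, and genes of few UMIs carry wide ones.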
